A study of Saccharomyces cerevisiae with 16 samples.

Results

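H3K4me3 was compared between yeast carrying HPRT1R and yeast carrying HPRT1, each on a yeast artificial chromosome (YAC). The groups were taken from the sample titles: 2 HPRT1R YAC libraries were set against 2 HPRT1 YAC libraries, 4 of the 16 samples of the series and 4 of its 8 samples with a peak list. The strain was BY4741, a haploid of mating type a that lacks HIS3, LEU2, MET17 and URA3 function. HPRT1R YAC cells had the genotype synHPRT1R and HPRT1 YAC cells the genotype synHPRT1, synHPRT1 being a synthetic human HPRT1 locus and synHPRT1R the same sequence reversed. Both groups grew at 30 °C in the same leucine-free synthetic medium, SC-Leu, from an optical density of 0.1 to about 0.6 in 6 hours. Chromatin was profiled by CUT&RUN with 0.5 µg of H3K4me3 antibody. The same amount of rabbit IgG was used in the control samples, which were not analysed here.

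H3K4me3 is trimethylation of lysine 4 on histone H3. In budding yeast it is placed by Set1 within the COMPASS complex, which travels with RNA polymerase II early in transcription, and it lies at the 5′ ends of transcribed genes. HPRT1 encodes the purine salvage enzyme hypoxanthine-guanine phosphoribosyltransferase in human cells, where most of the locus is noncoding. A sequence that is reversed without being complemented keeps its base composition and its repeats of single bases, but loses its codons, splice sites and factor binding sites. Peaks on HPRT1R and HPRT1 therefore describe the mark on 2 long sequences that did not evolve in yeast, while native genes and the shared vector describe the host cell around them.

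What was analysed was 1 list of peaks per library. The lists held 3463 and 3939 peaks in the HPRT1R YAC libraries (replicates 1 and 2, in this order throughout), and 4049 and 3964 in the HPRT1 YAC libraries. A peak's fold is the authors' own value, its observed over its expected read pileup, and it depends on the library's own background. Folds of different libraries are given side by side as a description and were not tested, and ranks were taken within a list. The pileup at the summit and the expected pileup were solved from the fold and the p-value of each peak. Depth could be read only as the genome-wide expected pileup, which was 98.9 and 78.6 reads in the HPRT1R YAC libraries, against 85.4 and 92.7 reads in the HPRT1 YAC libraries. Counting error follows from pileups of this order, and depth is unknown where a library has no peak. Peaks were called on mitochondrial DNA too, where there are no histones, so a peak in these lists is not proof of the mark at its place.

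HPRT1R YAC replicate 1 stood apart. It had the fewest native peaks, the lowest native median fold, 1.86 against 2.04 to 2.16 in the other 3 libraries, and the highest genome-wide expected pileup. Its peak names number it 3, where its title says replicate 1, and carry a library code far from the consecutive codes of the other lists. The labels of HPRT1 YAC replicate 2 conflict: its cell line is given as carrying the HPRT1R YAC, its title, source and genotype as HPRT1. Its peak names carry the strain name of HPRT1 YAC replicate 1. Its 59 insert peaks lie on the HPRT1 contig, at a read level of 5.21 times the genome-wide value, and it was kept with HPRT1. The labels do not say that replicates came from separate cultures or clones, and the spread that the p-values measure may be technical. With 2 libraries against 2, the exact permutation test cannot give a two-sided p below 0.333, and no value given with this test can reach 0.05.

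The lists hold 1 contig per sequence besides the native chromosomes. Its first 100 kb is called the insert and the rest the vector, since the exact border was not given. The synthetic sequences were marked by called peaks over a like share of their length, but the peaks on HPRT1R ranked lower among native peaks than those on HPRT1. The insert held 46 and 63 peaks in the HPRT1R YAC libraries, against 58 and 59 in the HPRT1 YAC libraries. The density was 4.6 and 6.3 peaks per 10 kb on HPRT1R, against 5.8 and 5.9 on HPRT1, and the groups overlapped (difference −0.4, exact permutation test, p = 1). Peaks covered 45.3% and 42.1% of HPRT1R, against 42.9% and 44.7% of HPRT1. The mean coverage was 43.7% ± 2.24 for HPRT1R and 43.8% ± 1.25 for HPRT1 (SD, n = 2 each), which differ by −0.12 percentage points (exact permutation test, p = 1). The median width of insert peaks was 636 and 473 bp on HPRT1R, against 590 and 650 bp on HPRT1.

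The median fold of insert peaks was 1.47 and 1.54 in the HPRT1R YAC libraries, against 1.83 and 1.74 in the HPRT1 YAC libraries. To set this beside the same cells' own genes, each insert peak was given its percentile by fold among the native peaks of its library. The median insert peak stood at percentile 9.83 and 7.18 in the HPRT1R YAC libraries, against 33.6 and 26.0 in the HPRT1 YAC libraries. The means were 8.51 ± 1.87 for HPRT1R and 29.8 ± 5.35 for HPRT1 (SD, n = 2 each), a difference of −21.3 percentile points (exact permutation test, two-sided, p = 0.333, the smallest possible). Both HPRT1R libraries lay below both HPRT1 libraries, and the difference without HPRT1R YAC replicate 1 was −22.6.

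The share of stronger insert peaks was also lower in both HPRT1R YAC libraries, while the very highest folds overlapped between groups. A fold of 2 or more was found for 2 of 46 insert peaks (4.35%) and 13 of 63 (20.6%) in the HPRT1R YAC libraries, against 19 of 58 (32.8%) and 17 of 59 (28.8%) in the HPRT1 YAC libraries. A fold above the native median was found for 4 of 46 (8.70%) and 12 of 63 insert peaks (19.0%) in the HPRT1R YAC libraries, against 16 of 58 (27.6%) and 16 of 59 (27.1%) in the HPRT1 YAC libraries. Neither share overlapped between groups. The highest insert fold was 2.25 and 3.19 on HPRT1R, against 3.07 and 2.82 on HPRT1. The mean of the 10 highest folds was 1.90 and 2.53 on HPRT1R, against 2.59 and 2.45 on HPRT1, so that HPRT1R YAC replicate 2 lay between the HPRT1 libraries. The share with a fold of 2 or more and the mean of the 10 highest folds were chosen after seeing the data.

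A fold divides the summit by the reads expected around it, and both terms were examined. The median expected pileup at insert peaks was 5.67 and 5.46 times the genome-wide value in the HPRT1R YAC libraries, against 4.96 and 5.21 times in the HPRT1 YAC libraries. The mean was 5.56 ± 0.150 on HPRT1R and 5.09 ± 0.181 on HPRT1 (SD, n = 2 each), a difference of 0.478 (exact permutation test, p = 0.333). At its insert peaks every library thus had a median expected pileup about 5-fold the genome-wide value, and the groups did not overlap. Single insert peaks ran from 2.91 to 7.05 times that value, and the insert outside peaks was not measured. The median summit level, the summit pileup over the genome-wide expected pileup, was 8.69 and 9.31 on HPRT1R, against 9.21 and 8.99 on HPRT1, and the groups overlapped (difference −0.10, exact permutation test, p = 1). Copies of the YAC per cell and reads per copy cannot be told apart in these lists, and the part of the read level in the lower ranks was not tested.

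**Figure D1:**
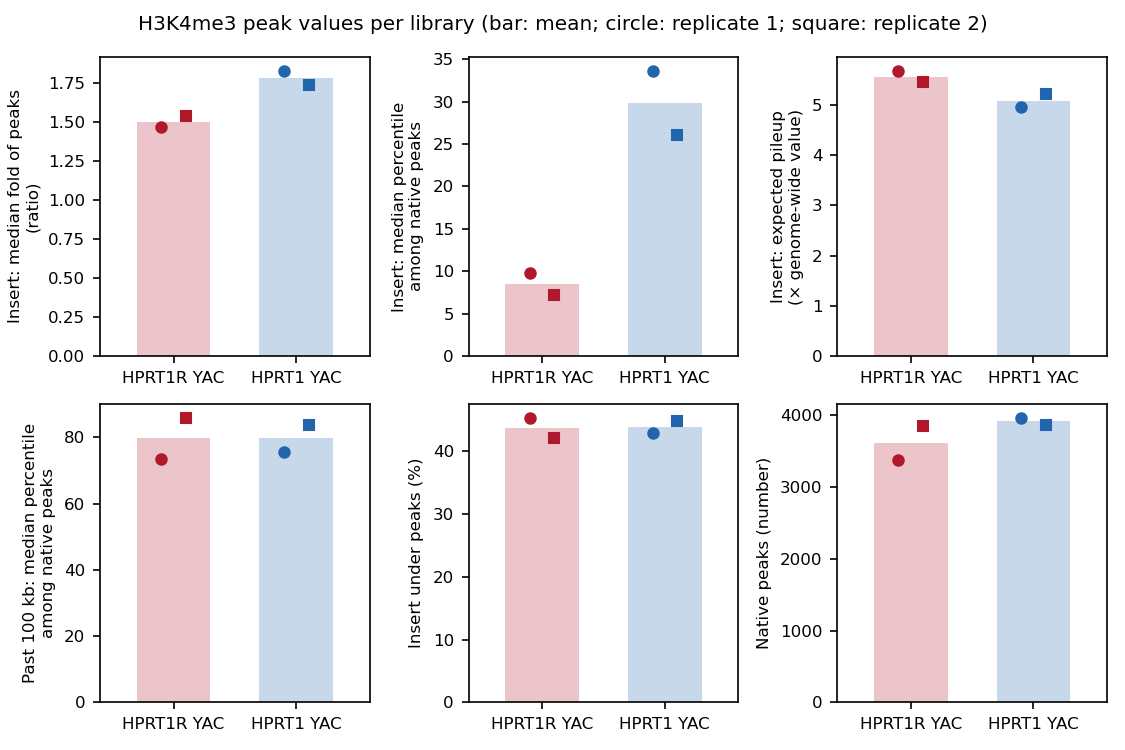
Values per library for the HPRT1R YAC (red, left) and the HPRT1 YAC (blue, right). Bars are means of 2 libraries and points are libraries. The median fold and percentile of insert peaks and their read level do not overlap between groups, while insert coverage and the percentile past 100 kb do.

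Past 100 kb, where both YACs should hold the same vector (both contigs are named for it), the groups overlapped in each measure. The vector carried 4 and 5 peaks in the HPRT1R YAC libraries, against 5 and 4 in the HPRT1 YAC libraries. Its median percentile among native peaks was 73.5 and 85.9 in the HPRT1R YAC libraries, against 75.5 and 83.8 in the HPRT1 YAC libraries. The means were 79.7 ± 8.80 for HPRT1R YAC and 79.7 ± 5.88 for HPRT1 YAC (SD, n = 2 each), a difference of 0.0212 (exact permutation test, p = 1). The vector was covered over 57.1% and 51.6% in the HPRT1R YAC libraries, against 59.8% and 56.5% in the HPRT1 YAC libraries (difference −3.83 percentage points, exact permutation test, p = 0.667). Its read level averaged 4.08 ± 0.341 in the HPRT1R YAC libraries and 4.09 ± 0.130 in the HPRT1 YAC libraries (SD, n = 2 each). With 2 libraries per group the exact test could detect no difference in the vector percentile, and the SD of 8.80 limits what the values show.

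Peaks found in both replicates fell into 4 vector regions in each group, at the same places. The first ran from base 99759 to 101076 of the HPRT1R contig, against 99887 to 101033 of the HPRT1 contig. Its summit was at base 100905 in all 4 libraries. The second ran from 103430 to 104497 on the HPRT1R contig, against 103420 to 104520 on the HPRT1 contig, with summits at 103963 and 103961 in the HPRT1R YAC libraries, against 103959 and 103955 in the HPRT1 YAC libraries. The third ran from 105207 to 107720 on the HPRT1R contig, against 105205 to 107663 on the HPRT1 contig, and its summits were at 106815 and 105973, against 105966 and 106185. The last reached the end of the contig, from 110295 to 113922 for HPRT1R, against 110423 to 113928 for HPRT1. Its summit was at 111609 and 111962 in the HPRT1R YAC libraries, against 111970 and 111959 in the HPRT1 YAC libraries. The vector regions therefore kept their positions across the inserts, and the summits that strayed were those of HPRT1R YAC replicate 1 and, in the third region, of HPRT1 YAC replicate 2. The files do not name the genes of the vector.

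The median summit level on the insert divided by that on the vector was 1.10 and 0.829 for HPRT1R, against 0.898 and 0.860 for HPRT1. The groups overlapped (difference 0.0843, exact permutation test, p = 1), and HPRT1R YAC replicate 1 was the highest of the 4. Without it the difference was −0.0497. The vector summit level was 7.93 in that library, against 10.3 to 11.2 in the other 3.

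**Figure D2:**
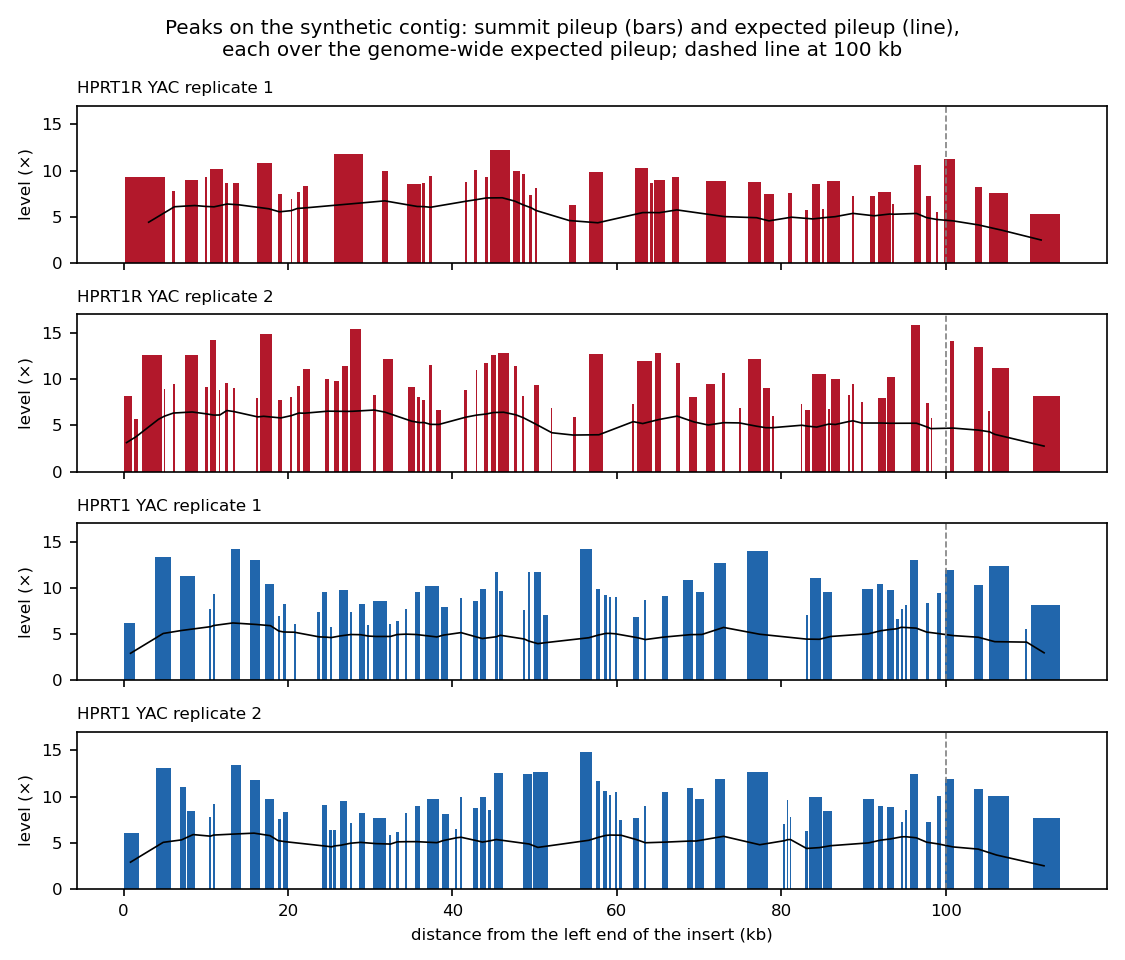
Peaks along the synthetic contig in each library, in kb from its left end. Bars span each peak and reach its summit level, the line is the expected pileup at the peaks, both as multiples of the genome-wide expected pileup, and the dashed line marks 100 kb. The 4 regions past 100 kb sit in the same places in all libraries; of the 39 insert regions of HPRT1R, 27 overlap a peak of both HPRT1 YAC libraries at the same position, and 4 have a summit within 50 bp of an HPRT1 summit.

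The insert regions that both replicates shared numbered 39 on HPRT1R and 51 on HPRT1, with median percentiles of 20.1 and 34.3. Replicates placed their summits within 50 bp of each other in 21 of 39 regions (53.8%) on HPRT1R, against 42 of 51 regions (82.4%) on HPRT1. On HPRT1R the strongest region ran from base 56629 to 58341, at a mean percentile of 85.9 and with folds of 2.25 and 3.19. Its summits were at 57687 and 57817. The next ran from 95817 to 97043, at a mean percentile of 73.7, with a summit at 96448 in both replicates. The region from 110 to 5063, at the left end, was 1 peak in replicate 1 and 4 peaks in replicate 2, and its mean percentile was 72.6. The fourth and the fifth ran from 16046 to 18107 and from 75922 to 77591, at mean percentiles of 57.8 and 55.6. The summit of the fifth was at 76997 in both replicates.

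On HPRT1 the strongest region ran from base 55474 to 57025, at a mean percentile of 90.4 and with folds of 3.07 and 2.81. Its summit was at 56592 in both replicates. The next were the regions from 49846 to 51600, at percentile 89.3, from 75843 to 78423, at 85.0, from 48544 to 49642, at 82.7, and from 3876 to 5781, at 81.3. Summits were at base 50392, 77380 and 4819 in both replicates for the first, the second and the last of these. On HPRT1R only the strongest region had a mean percentile above 81.3.

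The positions of insert peaks were then compared with HPRT1R read in the same direction as HPRT1 and with its positions mirrored. Bases under both-replicate peaks made up 34.2% of HPRT1R and 39.9% of HPRT1. Of the HPRT1R bases, 46.8% lay under an HPRT1 peak at the same position, against the 39.9% that HPRT1 peaks cover. Of the HPRT1 bases, 40.1% lay under an HPRT1R peak, against the 34.2% that HPRT1R peaks cover. Mirrored about 100 kb, 33.8% of the HPRT1R bases lay under an HPRT1 peak, which is below the covered share. Replicates shared far more, since 75.5% of the HPRT1R bases of replicate 1 were under a peak of replicate 2, and 93.1% of the HPRT1 bases.

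By regions, 27 of the 39 HPRT1R insert regions (69.2%) overlapped a peak of both HPRT1 YAC libraries at the same position and 12 overlapped none, and mirrored it was 27 and 7. Of the 51 HPRT1 insert regions, 35 (68.6%) overlapped a peak of both HPRT1R YAC libraries at the same position and 9 none, and mirrored it was 27 and 12. Many regions therefore touched, at places where their summits lay apart.

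Coverage was also compared in 1 kb bins. Pearson's r over the 100 bins of the insert was 0.23 at the same position and −0.12 mirrored, against 0.77 between the HPRT1R replicates and 0.91 between the HPRT1 replicates. The bins share libraries and neighbouring bins share peaks, so that r is given as a description only. The mirrored value depended on the point of reflection. With the mirror length 1 kb shorter, 31.8% of the HPRT1R bases were shared (r = −0.23), and with it 1 kb longer 44.4% were (r = 0.18), above the 39.9% covered. Summits in the insert lay within 50 bp of an HPRT1 summit for 4 of 39 HPRT1R regions at the same position and for 2 of 39 mirrored, with median distances of 578 and 659 bp. In the vector it was 2 of 4 regions, with a median distance of 92 bp.

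**Figure D3:**
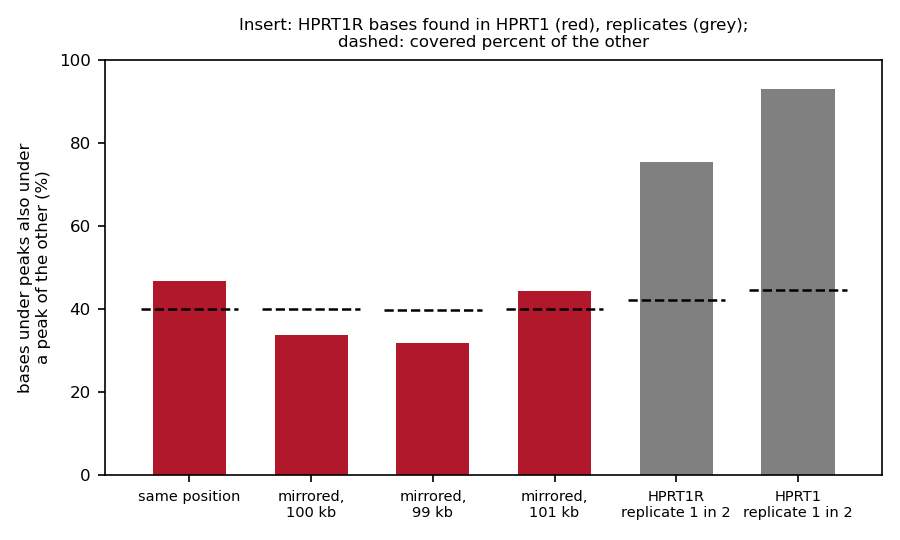
Percent of bases under HPRT1R insert peaks that also lie under HPRT1 insert peaks (red), at the same position and mirrored about 3 points, and the same between replicates (grey). Dashed lines give the percent of the insert that the other list covers; the shares between sequences stay near these lines at 31.8% to 46.8%, and those between replicates reach 75.5% and 93.1%.

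Coverage was also set side by side in stretches of 10 kb at equal coordinates, where the reversed HPRT1R holds other sequence than HPRT1. In the first 10 kb, peaks covered 69.6% and 60.5% of HPRT1R, against 50.3% and 52.2% of HPRT1. Between 30 and 40 kb they covered 30.0% and 41.9% of HPRT1R, against 56.0% and 53.1% of HPRT1. Between 50 and 60 kb, the stretch that holds the strongest region of each insert, they covered 27.7% and 28.5% of HPRT1R, against 42.5% and 46.3% of HPRT1. Of 10 such stretches, both HPRT1R libraries lay above both HPRT1 libraries in 4 (40%) and below them in 3 (30%). Without any difference, groups of 2 libraries separate in a stretch with a probability of 0.333, the smallest p of the exact permutation test. All stretches share the same libraries, and these counts were not tested.

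On native chromosomes the lists differed in the number of peaks more than in what they covered. The HPRT1R YAC libraries had 3377 and 3844 native peaks, against 3963 and 3864 in the HPRT1 YAC libraries. The means were 3610.5 ± 330 for HPRT1R YAC and 3913.5 ± 70.0 for HPRT1 YAC (SD, n = 2 each), a difference of −303 (exact permutation test, p = 0.333). Without HPRT1R YAC replicate 1 the difference was −69.5. Their median width was 651 and 581 bp in the HPRT1R YAC libraries, against 540 and 605 bp in the HPRT1 YAC libraries. They covered 22.9% and 23.6% of native bases in the HPRT1R YAC libraries, against 22.8% and 24.3% in the HPRT1 YAC libraries, and the groups overlapped (difference −0.35 percentage points, exact permutation test, p = 1).

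Native peaks were shared between the groups to the same degree as within them. A mean of 92.4% ± 2.69 of the native peaks of a library overlapped a peak in a library of the other group (SD over 8 ordered pairs), against 92.3% ± 2.53 for the other replicate (SD over 4 ordered pairs). When overlap had to reach 50% of both peaks, the shares were 75.9% ± 9.27 between groups and 75.8% ± 4.56 within them. A gene was called marked when a peak overlapped the window from 200 bp before to 500 bp after its start. Of 6002 genes, 4533 and 4622 were marked in the HPRT1R YAC libraries, against 4500 and 4708 in the HPRT1 YAC libraries. All 4 libraries marked 4101 genes (68.3%), and none marked 1018.

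Few genes separated the groups. Both HPRT1R YAC libraries and neither HPRT1 YAC library marked 27 genes (0.45%), and the reverse held for 41 genes (0.683%), 1.13% of all genes together. Replicates of the same group differed in far more, 507 genes (8.45%) between the HPRT1R YAC libraries and 464 genes (7.73%) between the HPRT1 YAC libraries, though a difference between replicates needs only 1 library against 1. Most of these peaks were weak, with a median over genes of the mean percentile of 17.2 for the 27 and 15.3 for the 41. For 8 of the 27 and 13 of the 41, a library of the other group had a peak within 100 bp of the window. The calls therefore include genes where a peak of both groups ended just inside the window in one and just outside it in the other.

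The 12 strongest peaks marked in HPRT1R YAC alone began with YBR096W, which ranked at percentile 95.0 and 70.6, and YLR358C, at 64.1 and 72.4. In both genes a peak of each HPRT1 YAC library lay within 14 to 35 bp of the window. YBL028C, at percentile 52.1 and 74.0, and CSF1, at 40.1 and 78.3, likewise had an HPRT1 YAC peak within 23 to 90 bp. SAC7, a GTPase-activating protein for the small GTPase Rho1, ranked at percentile 13.0 and 88.5. AFT1, the activator of iron uptake genes, ranked at 79.6 and 15.1, with HPRT1 YAC peaks 26 and 20 bp away. These ranks belong to separate peaks, from 371120 to 371851 in replicate 1 and from 372032 to 372263 in replicate 2. In the region with a peak in both replicates, from 372032 to 372263, the percentiles were 3.48 and 15.1. SAC7 thus ranked far apart in the replicates, AFT1 was ranked by separate peaks, and the other 4 had HPRT1 YAC peaks beside the window.

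PRP9 was marked in HPRT1R YAC with no neighbouring peak in HPRT1 YAC. It encodes a splicing factor of the U2 particle and lies on chromosome IV from 397537 to 399129 (assembly R64). Its peaks had folds of 1.84 and 2.15 and ranked at percentile 48.2 and 49.2 in the HPRT1R YAC libraries, and the nearest HPRT1 YAC peaks were 1323 and 1304 bp away. NEJ1, which acts in end joining of DNA breaks, ranked at 37.3 and 29.2, with the nearest HPRT1 YAC peaks 1658 and 665 bp away. MSS11, a regulator of filamentous growth, ranked at 3.09 and 44.7, and MKS1, a regulator of the retrograde pathway, at 34.5 and 8.36. Their nearest HPRT1 YAC peaks were 1463 to 2407 bp away. The last of the 12, MMO1 and CLB1, a B-type cyclin, ranked at 17.8 and 59.3 and at 2.13 and 55.1. HPRT1 YAC peaks lay 8 and 9 bp from the window of MMO1 and 337 and 155 bp from that of CLB1.

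Among the genes marked in HPRT1 YAC alone, TAG1 ranked at percentile 88.9 and 84.4 and SMK1, a MAP kinase of spore wall assembly, at 81.7 and 85.8. HPRT1R YAC peaks lay 41 and 44 bp from the window of TAG1 and 12 and 10 bp from that of SMK1. IGD1, an inhibitor of glycogen debranching, ranked at 83.4 and 30.2, PBR1 at 51.6 and 40.5, and MPC3, a subunit of the mitochondrial pyruvate carrier, at 34.1 and 43.0. KNS1, a protein kinase, ranked at 7.13 and 68.2. An HPRT1R YAC peak lay within 160 bp of each of these 4 windows in at least 1 library.

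GLC3, the glycogen branching enzyme on chromosome V from 133120 to 135234, was marked in HPRT1 YAC at percentile 17.3 and 31.2, and the nearest HPRT1R YAC peaks were 3706 and 3755 bp away. YCL019W and YCL020W share a start on chromosome III and 1 peak, which ranked at 42.2 and 30.2 in the HPRT1 YAC libraries, with the nearest HPRT1R YAC peak 5498 bp away. These 2 genes have the same lengths, 5314 and 1317 bp, as the pair YLR410W-B and YLR410W-A, also marked in HPRT1 YAC alone at percentile 17.3 and 7.75, and reads may be shared between such copies. The others were MBB1, at 43.1 and 19.1, PDL32, at 25.7 and 20.5, ATP10, an assembly factor of the mitochondrial ATP synthase, at 22.2 and 19.4, and CYC7, an isoform of cytochrome c, at 32.3 and 8.55. For each of these 4, an HPRT1R YAC library had a peak within 35 bp of the window.

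**Figure D4:**
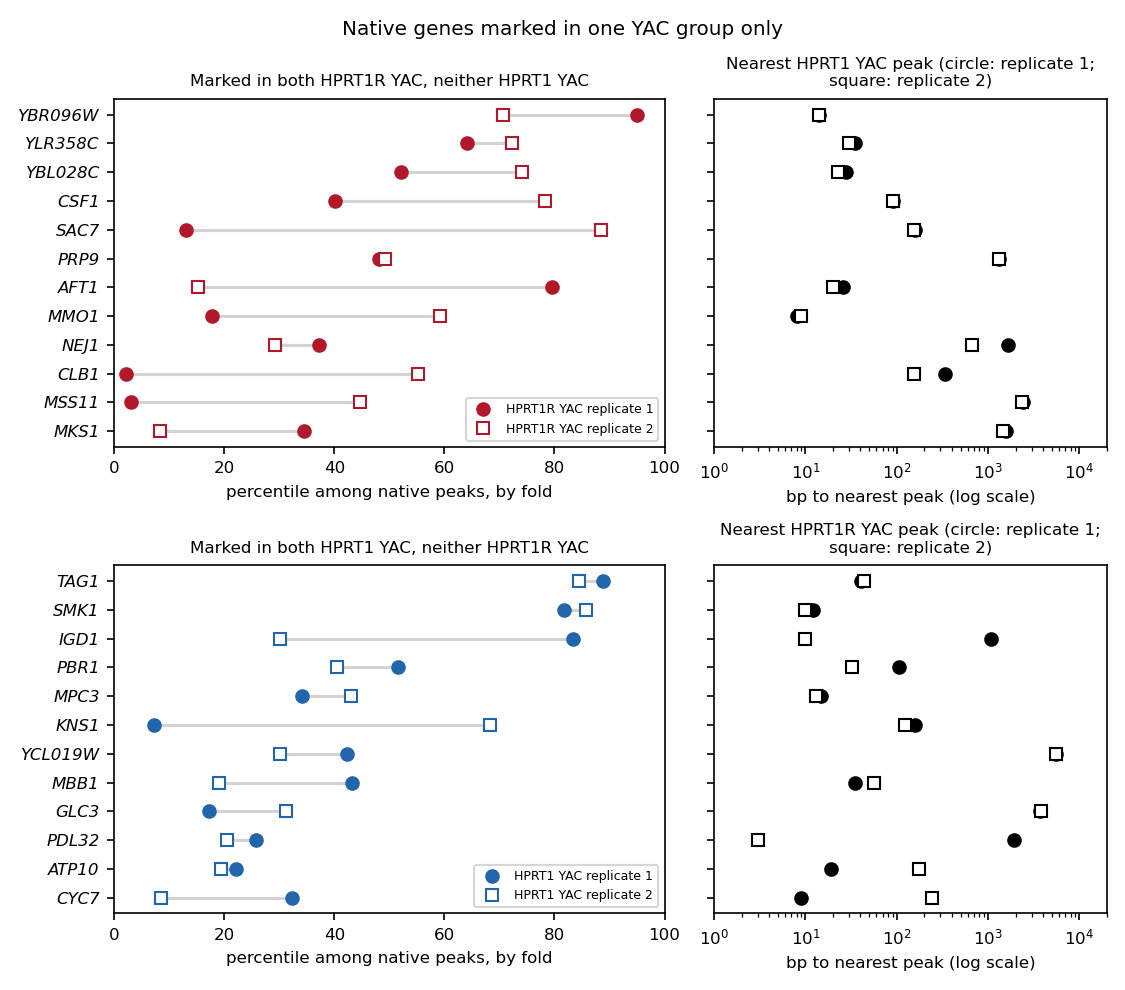
The 12 strongest native genes marked in both HPRT1R YAC libraries alone (above) and in both HPRT1 YAC libraries alone (below). Left panels give the percentile of the peak in each replicate, right panels the distance in bp, on a log scale, from the gene's window to the nearest peak of each library of the other group; PRP9, at percentile 48.2 and 49.2, has its nearest peaks 1304 and 1323 bp away, while TAG1 and SMK1 have theirs 10 to 44 bp away.

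The calls depended on the rule. Of the 27 genes, 13 were also called when the summit had to lie within the 500 bp after the gene start, and of the 41 genes, 24 were. A stricter q-value kept 14 of the 27 and 20 of the 41. With equal numbers of peaks per library, 15 of the 27 and 13 of the 41 were kept, and the counts turned to 65 for HPRT1R YAC and 36 for HPRT1 YAC. Under the window, summit and q-value rules 4 genes were called for HPRT1R YAC, namely PRP9, AFT1, RHB1, a Rheb-type GTPase, and DHR2, an RNA helicase of ribosome assembly. For HPRT1 YAC there were 10, of which YCL019W and YCL020W share the same peak. The others were MTH1, a repressor of hexose transporter genes, SNM1, a subunit of the ribonuclease MRP, AFB1, ATP10, SUT2, MPF1, YJR115W and YMR082C. With equal numbers of peaks all 4 were kept for HPRT1R YAC, and 5 of the 10 for HPRT1 YAC, YCL019W, YCL020W, SNM1, ATP10 and YJR115W. With the same sequences integrated, in cells grown in another medium, 0 of the 27 and 0 of the 41 genes were called the same way. There 4 of the 27, AFT1 among them, were called the opposite way. However, 9 of the 27 and 26 of the 41 were marked in all 4 integrated libraries, so that no call either way was possible for them. The share of all genes called when integrated is not given here, and the counts cannot be set against it.

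Merged peaks gave the same picture without gene windows, a comparison chosen after seeing the data. Of 3825 native regions, 2874 (75.1%) had a peak in all 4 libraries and 326 (8.52%) in 1 library alone. Both HPRT1R YAC libraries and neither HPRT1 YAC library had a peak in 27 regions (0.706%), and the reverse held for 49 regions (1.28%). The strongest region of HPRT1R YAC alone was that of PRP9, from 397411 to 397695 on chromosome IV, at a mean percentile of 48.7. The strongest of HPRT1 YAC alone was that of YCL019W, from 85267 to 85620 on chromosome III, at a mean percentile of 36.2. By mean percentile, none of these 27 and 49 regions stood above the median native peak.

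Signal was compared at the 4099 genes that had a recovered summit pileup in all 4 libraries, on the log2 scale with each library centred on its median. With limma and Benjamini-Hochberg adjustment over the 4099 genes, 0 (0%) were higher and 0 (0%) lower in HPRT1R YAC at an adjusted p of 0.05, and 139 had an unadjusted p below 0.05. These genes hold 3155 distinct sets of peaks, since neighbours can share a peak. The log2 differences had an SD of 0.14, 99.6% were within 0.5 of 0, and 0 genes differed over 2-fold. Only genes with a peak in every library could enter, so that marks lost in a group are outside the test. HPRT1R YAC replicate 2 correlated with the HPRT1 YAC libraries at r = 0.90 and 0.92 over genes, and with the other HPRT1R YAC library at r = 0.81, against 0.90 between the HPRT1 YAC replicates. Without HPRT1R YAC replicate 2, limma called 54 genes higher and 54 lower in HPRT1R YAC, and without replicate 1 it called 6 and 4, where the lone library is assumed to vary like the other group.

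The gene with the lowest p was SSK1, a response regulator of the osmotic stress pathway on chromosome XII. Its peak had summit pileups of 306 and 351 reads in the HPRT1R YAC libraries, against 166 and 186 in the HPRT1 YAC libraries. The groups did not overlap, which also held for many of the 4099 genes, 589 on the higher side and 666 on the lower in all. The log2 difference was 0.94 (SE 0.13), with an adjusted p of 0.0540 by limma. The summits were not at the same place: they lay at 164418 and 164430 in the HPRT1R YAC libraries, against 163840 and 163857 in the HPRT1 YAC libraries. When the log2 values were scaled to one spread per library, a fit chosen after seeing the data, 1 gene passed the threshold as higher, at an adjusted p of 0.0412.

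The next genes on the higher side had summits that also lay apart. CAL4 had a log2 difference of 0.74 (limma adjusted p = 0.122) with the 4 summits spread over 771 bp, and RSM27, a protein of the mitochondrial ribosome, 0.70 (adjusted p = 0.376) over 1906 bp. HMF1 had 0.68 over 725 bp and NTA1, the amidase that prepares N-terminal residues for degradation, 0.66 over 1134 bp, both with a limma adjusted p of 0.201. On the lower side HIS4, an enzyme of histidine synthesis, had pileups of 180 and 169 reads in the HPRT1R YAC libraries, against 286 and 268 in the HPRT1 YAC libraries. Its log2 difference was −0.63 (adjusted p = 0.376 by limma), and the summits spread over 1774 bp. The values for these 6 genes thus compare summits of different places within wide or split peaks.

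The other genes with the lowest p on the lower side were the pair YPR137C-B and YPR137C-A, at −0.56, and the pair YJR029W and YJR028W, also at −0.56, each with a limma adjusted p of 0.587. Each pair shares 1 peak, and the pairs have the same lengths, 5269 and 1323 bp, so that reads may be shared between copies. Their summits spread over 191 and 206 bp. Among the 2108 genes (51.4%) whose summits lay within 200 bp of each other in the 4 libraries, limma called 0 in either direction, with 80 at an unadjusted p below 0.05 and a lowest adjusted p of 0.216. This subset was also chosen after seeing the data.

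**Figure D5:**
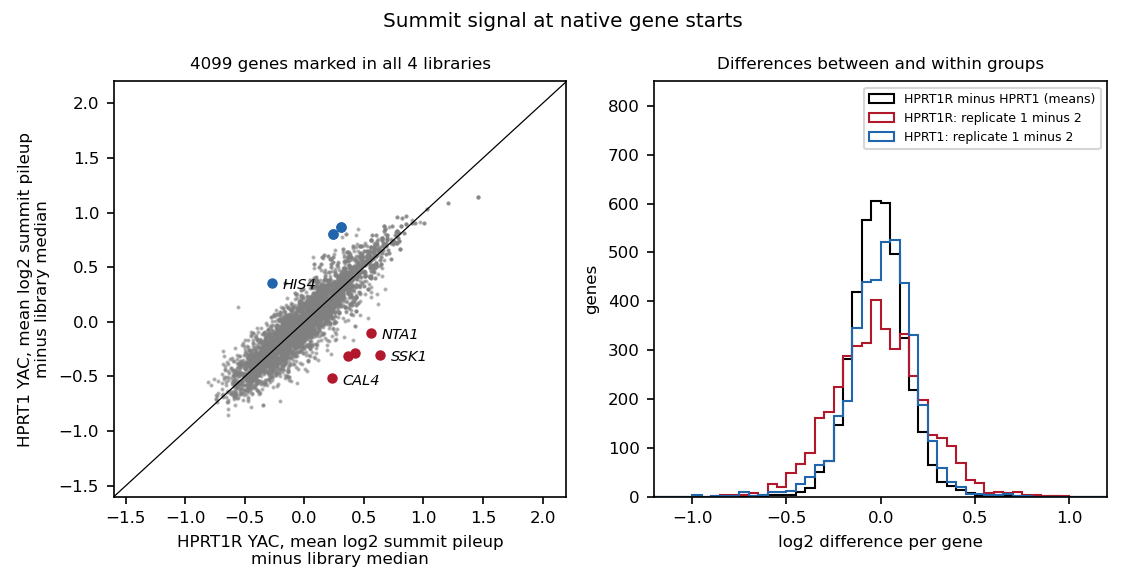
Left, the mean log2 summit pileup minus the library median at 4099 gene starts, HPRT1R YAC on the horizontal and HPRT1 YAC on the vertical axis, with the genes of lowest p in colour. Right, the difference per gene between group means (black) and between single replicates of HPRT1R YAC (red) and HPRT1 YAC (blue); 99.6% of the group differences are within 0.5 log2 units, and means of 2 libraries vary less than single libraries do.

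Chromosomes were compared as wholes. The median log2 difference of its genes, HPRT1R minus HPRT1, ran from −0.09 on chromosome I to 0.0025 on chromosome VII. On chromosome I the library medians were 0.03 and 0.23 in the HPRT1R YAC libraries, against 0.20 and 0.28 in the HPRT1 YAC libraries, so that the groups overlapped. Without HPRT1R YAC replicate 1 the difference on chromosome I was −0.01. Genes of the translation machinery were marked in both groups. All 4 libraries marked 134 of 137 genes of cytosolic ribosomal proteins (97.8%) and 48 of 53 of ribosome assembly (90.6%), against 68.3% of all genes. Of the ribosomal protein genes, 0 were marked in 1 group alone, against 1.13% of all genes. The 134 marked in all 4 libraries could not be called, and the list is too short to tell 0 from that share. The median log2 difference in summit signal of the ribosomal protein genes was 0.01, against −0.01 over all genes tested. Limma called 0 genes of any list in summit signal. The genes of H3K4 methylation and its regulators were marked in all 4 libraries in 15 of 17 cases. For SET1 itself, the methyltransferase, the fold was 2.51 and 2.88 in the HPRT1R YAC libraries, against 2.67 and 2.67 in the HPRT1 YAC libraries.

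Purine synthesis and salvage bears on the human enzyme for which the insert is named. All 4 libraries marked 17 of its 19 matched genes (89.5%), against 68.3% of all genes. Marked in 1 group alone were 0, against 1.13% of all genes, and the list is too short to tell 0 from that share. The median log2 difference was 0.01, against −0.01 over all genes tested. HPT1, the yeast counterpart of HPRT1, had a fold of 1.65 and 2.11 in the HPRT1R YAC libraries, against 2.08 and 1.89 in the HPRT1 YAC libraries, and the groups overlapped. Its log2 difference in summit signal was −0.06. Branched-chain amino acid synthesis, of which LEU2 is a part, had 13 of 14 genes marked in all 4 libraries and a median log2 difference of −0.09. BAT2, a transaminase of this pathway, was marked in HPRT1 YAC alone with folds of 1.44 and 1.69. It was the 1 call among the 14 genes (7.14%), against 1.13% of all genes. A list this short cannot tell 1 call from that share.

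The marker loci were set beside the strain and the selection. LEU2 was marked in all 4 libraries, with folds of 3.85 and 5.41 in the HPRT1R YAC libraries, against 4.68 and 4.29 in the HPRT1 YAC libraries, and stood above percentile 99 in each. LEU2 is one of the marker loci deleted in BY4741, and the leucine-free medium selects for a working copy. The lists place these reads at the native coordinates, and whether they come from a copy on the YAC was not tested. LEU2 counts among the marked native genes with this limit. HIS3 was marked in all 4 libraries, at percentile 92.7 and 84.7 in the HPRT1R YAC libraries, against 87.3 and 91.8 in the HPRT1 YAC libraries. BY4741 lacks HIS3 function, and the source of these reads was not tested either. URA3 and MET17 were marked in none. Of the a-specific genes, 3 of 7 (42.9%) were marked in all 4 libraries, against 68.3% of all genes, namely STE2, STE6 and the protease gene BAR1. ASG7 lacked a mark in HPRT1 YAC replicate 1, MFA2 had one only in HPRT1R YAC replicate 1, and MFA1 and AGA2 had none. Of the alpha-specific genes, 0 of 5 were marked in all 4 libraries, and STE3 was marked only in HPRT1 YAC replicate 2. AFB1, an alpha-specific gene, was marked in HPRT1 YAC alone, with weak folds of 1.59 and 1.61. It was the 1 call among the 5 genes (20%), against 1.13% of all genes, and the list is too short to compare these shares.

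Over all genes, 1018 of 6002 were unmarked in all 4 libraries. None of the 36 subtelomeric COS and PAU genes was marked in any library, and 6 of 7 galactose genes and 7 of 12 phosphate genes were unmarked in all 4. Among 21 genes of meiosis and sporulation, 19 were unmarked in all 4 libraries and SMK1 was marked in HPRT1 YAC alone. Of 21 heat shock chaperone genes, 10 had the mark in every library and 7 lacked it throughout, and SSA1, an Hsp70 gene, was marked in HPRT1 YAC alone with folds of 1.67 and 1.41. Of 10 histone genes, 3 were marked in all 4, and HTA1, a gene of histone H2A, was marked in HPRT1 YAC alone with folds of 1.44 and 1.51. SSA1 and HTA1 each have a close copy in the genome, with which reads may be shared. SMK1, SSA1 and HTA1 were each the 1 call of their list. This is 4.76% of the meiosis and heat shock lists and 10% of the histone list, against 1.13% of all genes. Lists this short cannot tell 1 call from that share. SIR silencing genes were marked in all 4 libraries in 11 of 12 cases and centromere and kinetochore genes in 19 of 21. Glycolysis genes were so marked in 12 of 17 cases (70.6%), near the share of all genes. Iron uptake genes were marked in all 4 in 7 of 14 cases, and 5 were unmarked in all. In the SIR silencing, centromere and kinetochore, glycolysis and iron uptake lists 0 genes were marked in 1 group alone. Each of these lists is too short to tell 0 from the 1.13% of all genes.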

How the data were processed

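The files were 1 peak list per H3K4me3 library. Per the submitters' processing notes, the authors used MACS2 2.1.0, Bowtie2 2.2.9, SAMtools 1.9, bcl2fastq 2.20 and deepTools 3.5.0 with the sacCer3 build. How the caller was set, and whether with IgG as control, is not given in the sources used here. The authors deposited for each peak a fold over the expected pileup (a ratio), p-values and q-values as −log10, and a score derived from the q-value. The deposited scores were not used.

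Whole-number summit pileups and expected pileups were solved from fold and p-value. In each library 99.3% or more of peaks were solved to 0.001 in −log10 p, and a peak that missed by 0.01 had no pileup. The genome-wide expected pileup is the 10th percentile over native peaks. Genes were those of RefSeq's R64 table, with strand from systematic names. Native values cover the 16 nuclear chromosomes, and percentiles rank a peak's fold among the native peaks of its library.

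Library values were compared with exact two-sided permutation tests of means, 2 against 2, and log2 summit pileups with limma 3.58.1 (R 4.3.3) and Benjamini-Hochberg adjustment. The fit and the recovery of pileups were tested on simulated data. Python 3.11.15, NumPy 2.4.6, SciPy 1.17.1, pandas 2.3.3 and matplotlib 3.10.9 were used. Alternatives were a −log10 q of at least 5, equal numbers of peaks, other borders and windows, leaving out each library, and the replicate number as a block.

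Named are the 12 strongest genes marked in 1 group alone in each direction, the 5 genes of lowest limma p in each direction, called members of the 18 gene lists, HPT1, the marker loci, and the 5 strongest insert regions and all vector regions. Other genes named were chosen after their values were seen. Members, lists and tests were chosen with earlier results of these data known. One listed symbol had no match in the table. No sequence is shown, since no genome of the contig was used here.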

Additional observations from a re-analysis of the deposited data

Results flagged for a closer look

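The difference between HPRT1R and HPRT1 had opposite signs on the YAC and integrated into chromosome XI for 3 values, with no overlap of the groups in either setting. Insert peak density, insert coverage and native coverage were compared likewise and did not meet this rule. Without any difference, groups of 2 libraries separate in 1 setting with a probability of 0.333, the smallest p of the exact permutation test. The integrated strains grew in rich medium, so that setting and medium cannot be told apart, and the difference between the differences was not tested. The median percentile of insert peaks differed by −21.3 on the YAC. Integrated, it was 29.7 and 21.5 for HPRT1R, against 19.7 and 18.4 for HPRT1, a difference of 6.57. The insert read level differed by 0.478 on the YAC and by −0.0271 integrated. The number of native peaks differed by −303 on the YAC and by 234.5 integrated.

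Peaks were also called on the mitochondrial genome, outside the comparisons made here. There were 36 and 27 in the HPRT1R YAC libraries, against 23 and 37 in the HPRT1 YAC libraries.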

How the results depend on the processing

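Of 132 alternative values for 19 results, 97 kept their direction or stayed within the spread, 19 moved and 16 reversed, and the cause was not tested. The 97 include values that could not change, namely the replicate block of the library measures and the rescaled chromosome medians. For these the alternative equals the main value by construction. The lower percentile of HPRT1R insert peaks kept its direction under every alternative run, between −25.1 and −17.5 on leaving out 1 library. Coverage of the insert changed sign with equal numbers of peaks (0.622), with the insert ending at 98 kb (0.104) and on leaving out a library (−1.70 to 1.47). On leaving out 1 library, sign changes also occurred in native coverage (−1.09 to 0.392), insert density (−1.25 to 0.45), insert summit level (−0.407 to 0.211), vector percentile (−6.20 to 6.24) and insert over vector (−0.0497 to 0.218). The vector percentile differed by −0.652 at a −log10 q of at least 5. Native overlap between minus within groups was 0.0499, against −0.0198 at that q and −0.0528 with equal numbers. Shared insert bases over the covered percent at the same position were 8.09 with equal numbers, against 6.91, and lay between 5.38 and 6.46 with 1 replicate of each, and with the mirror 1 kb longer they were 4.42, against −6.18 mirrored about 100 kb.

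Genes marked in HPRT1R YAC alone numbered 69 by the summit rule, 65 with equal numbers and 53 to 197 on leaving out a library. Those of HPRT1 YAC alone numbered 188 by the summit rule, 36 with equal numbers, 54 at the stricter q and 80 to 232 on leaving out a library. Limma called 0 to 54 genes higher and 0 to 54 lower on leaving out a library, and 1 higher with one spread per library. The replicate block left 0 calls, with 76 genes at an unadjusted p below 0.05. With the block the library measures keep their values by construction (exact sign-flip permutation test, smallest possible p = 0.5). Replicate deviations correlated at −0.200 between the groups, so that numbers were not taken as pairs. With the pairing crossed, limma called 0 genes, with 237 at an unadjusted p below 0.05. Depth limits the weakest peaks, and what lies below the caller's threshold was not measured.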
